A study of Mus musculus with 15 samples.

Results

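The AP-1 transcription factors, their partner BATF proteins and IRF4 were followed in transferred OT-I CD8+ T cells after antigen with and without costimulation. The set holds 10 genes taken by symbol from the mouse annotation, which are Fos, Fosb, Fosl2, Jun, Junb, Jund, Batf, Batf3, Atf2 and Irf4. They are 10 of the 55536 annotated genes in the count table, and all 10 passed the filter on low counts. The genes were picked by symbol and not by a measured value, but with earlier results of these data known. The cells came from OT-I transgenic mice on a C57BL/6J background, which make a T cell receptor for the SIINFEKL peptide of ovalbumin and, per the methods, lack Rag1 or Rag2 and carry the CD45.1 allele. Naive splenic OT-I cells were transferred into C57BL/6J recipients with an intact immune system. Recipients of the Ag group received the peptide with rat IgG as control. Recipients of the Ag+Costim group received the peptide with agonist antibodies against OX40 (CD134) and 41BB (CD137). Donor cells were sorted from spleen and lymph nodes by CD8, CD45.1 and the transgenic receptor chains, at day 4 by the labels and at 3 days and 12 hours by the methods. The labels list 15 samples in 3 groups, and the 5 Ag and 5 Ag+Costim libraries were compared. Libraries of naive OT-I cells were not analysed here. All cells of both groups carried the same transgenic receptor and had met the same peptide, and the groups differed by the agonist antibodies in place of control IgG. T cells of other specificities were not examined.

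AP-1 is a dimer of basic leucine zipper proteins, in which a FOS family protein pairs with a JUN family protein or JUN proteins pair with each other, on a short DNA element. Antigen receptor signalling induces it through MAP kinases, and in T cells it binds together with NFAT and NF-kB. BATF and BATF3 have a zipper but no activation domain of their own, pair with JUN proteins and bind with IRF4 at composite elements, an arrangement known to shape effector CD8+ T cells. ATF2 is a zipper protein that is activated by stress kinases and pairs with JUN.

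Several facts about the libraries touch the values below. Totals of estimated counts lay between 59.6 and 449.4 M (mega) in Ag libraries, of which replicate 3 was the shallowest, and between 332.3 and 639.1 M in Ag+Costim libraries. T cell markers were present throughout, with 8 of 8 CD8 T cell markers above 0 in every library and a summed level of 3973 to 7594 CPM (counts scaled to a common library total, here by the trimmed mean of M values, TMM) in Ag and 5450 to 6413 CPM in Ag+Costim. The Ag libraries differed among themselves. In Ag replicates 1 and 4 the 16 cell cycle genes had a mean log2 CPM of 5.97 and 6.08, against 8.30 in replicate 3, 9.03 and 9.09 in replicates 2 and 5, and 9.01 to 9.31 in Ag+Costim. The 8 B cell markers had a mean log2 CPM of 4.77, 6.01 and 5.28 in Ag replicates 1, 3 and 4, of 0.63 and 0.96 in replicates 2 and 5, and of 1.77 to 3.26 in Ag+Costim. Their summed level was 663 to 1269 CPM in Ag and 534 to 790 CPM in Ag+Costim, most of it Ighm, and Pax5 was at 0 in 2 libraries. Summed hemoglobin and other erythroid markers reached 1106 CPM in Ag replicate 3 and lay between 3.80 and 126 CPM in the other libraries. In bulk RNA, fewer cells of a type and less RNA per cell cannot be told apart, and the part of other cells in any result was not tested.

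IRF4 gave the clearest difference of the set. Irf4 is induced in proportion to the strength of antigen receptor signalling and is needed for clonal expansion of CD8+ T cells. Its level was 7.95, 20.6, 20.2, 18.4 and 18.04 CPM in Ag replicates 1 to 5 and 29.8, 27.4, 25.5, 38.5 and 33.8 CPM in Ag+Costim replicates 1 to 5. Every costimulated library stood above every Ag library. Among all genes tested, 4.48% had every Ag+Costim library above every Ag library, and among genes with a mean of at least 10 CPM it was 11.3%. The mean went from 17.05 ± 5.21 (SD, n = 5) to 31.0 ± 5.23 CPM (SD, n = 5). The log2 fold change was 0.86 (SE 0.245, 95% interval 0.32 to 1.40), or 1.82-fold.

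By edgeR's quasi-likelihood test, with p-values adjusted by Benjamini and Hochberg (BH) over 24262 genes, Irf4 had an unadjusted p of 0.00501 and an adjusted p of 0.201. No gene of the whole table passed a BH value of 0.05 (0% of genes), so none of the 10 genes did, while 4501 genes (18.6%) had an unadjusted p under 0.05. DESeq2 called Irf4 higher (log2 fold change 0.75, adjusted p = 0.0278), as it did 930 genes, and called 7116 lower (22.3% of genes in all). limma with a weight for each library called Irf4 as well (1.21, adjusted p = 0.00175), but it called 52.2% of genes. The Irf4 fold change kept its sign in 18 of 18 alternative analyses, between 0.62 and 1.26, with an unadjusted p of at most 0.0177.

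In TMM-scaled CPM, Irf4 lay below the costimulated libraries in Ag libraries with few and with many cell cycle transcripts. Whether the cell cycle level accounts for a part of the Irf4 difference was not tested. Ag replicates 2 and 5, whose cell cycle level was that of the costimulated libraries, held 20.6 and 18.04 CPM. When scaled to the T cell genes Cd3d, Cd3e and Cd3g, which code for chains of the receptor complex, Irf4 had 0.335, 0.983, 1.58, 0.676 and 0.724 counts per 100 Cd3 counts in Ag and 1.58, 1.51, 1.27, 2.46 and 1.95 in Ag+Costim. On this scale the groups overlapped through Ag replicate 3, the shallowest library. The scale itself was not level between the groups. Cd3g and Cd3d had log2 fold changes of -0.41 and -0.34 (edgeR adjusted p = 0.298 and 0.328), though each Cd3 gene overlapped between the groups. How much of the higher ratio after costimulation came from lower Cd3 counts was not tested. Per 100 Junb counts, Irf4 had 7.42, 18.8, 23.1, 13.7 and 11.8 counts in Ag and 21.3, 18.2, 16.4, 25.4 and 25.1 in Ag+Costim, so Ag replicates 2 and 3 lay within the costimulated range. With total counts or upper quartile scaling the groups also overlapped, since the highest Ag library reached 24.5 and 23.2 CPM and the lowest Ag+Costim library 23.3 and 22.8 CPM.

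**Figure D1:**
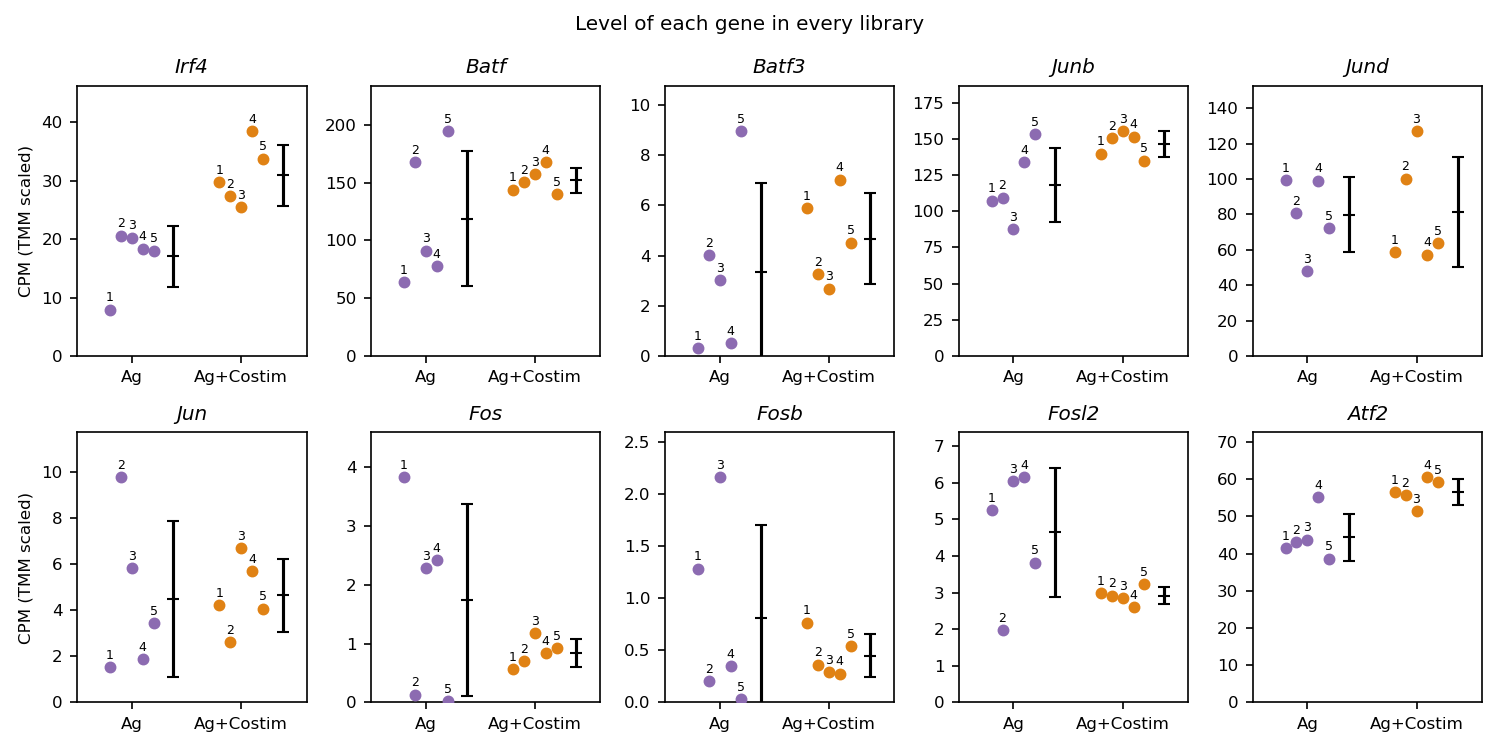
Level of each of the 10 genes in each library, in TMM-scaled CPM, with Ag replicates as purple and Ag+Costim replicates as orange points numbered by replicate; the black mark and bar are the mean and SD over 5 libraries, cut at 0. Irf4 lies between 7.95 and 20.6 CPM in Ag and between 25.5 and 38.5 CPM in Ag+Costim, whereas the 9 other genes overlap between the groups.

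Among the BATF proteins, Batf was as high in some Ag libraries as after costimulation. Batf measured 63.6, 168, 91.0, 77.4 and 195 CPM in Ag and 144, 150.4, 157, 168 and 140.2 CPM in Ag+Costim. Ag replicates 1, 3 and 4 lay below every costimulated library, and Ag replicate 5 lay above all of them. The means were 119 ± 58.5 (SD, n = 5) and 152 ± 10.98 CPM (SD, n = 5), with a log2 fold change of 0.35 (SE 0.295, 95% interval -0.30 to 1.004) and an edgeR adjusted p of 0.458. Low Batf went with a low cell cycle level, since Ag replicates 1 and 4 were lowest in both. Without Ag replicates 1, 3 and 4 the Batf log2 fold change was -0.22, a turn that the choice fixes, since these were the 3 lowest Ag libraries for Batf.

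Batf3, known best for its need in cross-presenting dendritic cells and also expressed by activated CD8+ T cells, was far less abundant. It had 0.297, 4.00, 3.03, 0.510 and 8.97 CPM in Ag and 5.90, 3.27, 2.68, 7.03 and 4.51 CPM in Ag+Costim. Like Batf, it was lowest in Ag replicates 1 and 4 and highest in Ag replicate 5, so the costimulated range lay inside the Ag range. The log2 fold change was 0.48 (95% interval -1.21 to 2.16, edgeR adjusted p = 0.698). It moved from 0.18 to 1.27 as single libraries were left out, the highest value being that without Ag replicate 5. Dendritic cell markers were above 0 in most libraries, with Flt3 and Clec9a at 0 in 1 library each and Siglech in 2. Their summed level was 138 to 432 CPM in Ag and 156 to 236 CPM in Ag+Costim. Most of it was Itgax, Bst2 and H2-Ab1, while Flt3, Xcr1 and Clec9a reached at most 4.85, 3.97 and 1.66 CPM. The mean log2 CPM of these markers was 1.61, -0.88, 3.76, 1.54 and 0.17 in Ag replicates 1 to 5. A dendritic cell source of Batf3 was not tested.

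The JUN proteins supply the partner of FOS and BATF proteins. Junb, which had the highest mean level per length of the 3 JUN genes, had 107, 109, 87.7, 134 and 153 CPM in Ag and 139.7, 150.3, 155, 152 and 135 CPM in Ag+Costim. Of the Ag libraries, 4 lay below every costimulated library, and replicate 5 lay among them. Its log2 fold change was 0.31 (SE 0.161, 95% interval -0.05 to 0.66, edgeR adjusted p = 0.294), and it shrank to 0.04 with total counts. Jund, which is expressed in most resting cells, had 99.3, 80.8, 47.9, 99.2 and 72.2 CPM in Ag and 58.5, 100.3, 127, 57.2 and 63.8 CPM in Ag+Costim. The costimulated libraries split into a higher pair and a lower set of 3, and the log2 fold change of 0.03 (95% interval -0.59 to 0.64) was negative with the 3 other scalings.

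Jun, the founding member of the family and an immediate early gene, was scarce. It had 1.52, 9.75, 5.83, 1.89 and 3.43 CPM in Ag and 4.21, 2.60, 6.69, 5.70 and 4.07 CPM in Ag+Costim. The spread within Ag exceeded any distance between the groups, with a log2 fold change of 0.05 (95% interval -1.04 to 1.15) that was negative with the 3 other scalings. Junos, a gene antisense to Jun, shares 689 bases with it and had at most 1.75 CPM, and Gm11175, antisense to Jund over 919 bases, had at most 0.561 CPM. Prdx2, a peroxiredoxin gene on the strand opposite Junb, overlaps it by 351 bases and had 129 to 344 CPM. The library kit does not mark strand, so reads in these overlaps cannot be told apart.

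The promoter of Jun is shown because it holds an element that JUN and ATF2 proteins are known to bind, by which Jun can act on its own gene. The letters are the 100 bases before the RefSeq start at chr4:95052223-95052322 (GRCm38.p6, minus strand), 5′ to 3′, and the capitals mark the element.
Jun promoter: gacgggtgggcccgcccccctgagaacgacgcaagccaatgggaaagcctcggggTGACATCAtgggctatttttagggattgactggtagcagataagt
The element lies 45 to 38 bases before the start. TGACATCA stood in 3.62% of 32851 promoter windows of 250 bases before to 50 after a start, both strands searched.

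Transcripts of the FOS family were rare in every library, and each of the 3 genes peaked in Ag replicate 1, 3 or 4. These libraries had the most B cell transcripts and also the lowest cell cycle level of the Ag group. Whether either trait bears on the FOS levels was not tested. Fos, the classical immediate early gene, had 3.82, 0.132, 2.28, 2.42 and 0.0189 CPM in Ag and 0.560, 0.699, 1.17, 0.831 and 0.919 CPM in Ag+Costim. In Ag replicates 2 and 5 this rested on 42 and 7 estimated counts. Ag replicates 1, 3 and 4 lay above every costimulated library and Ag replicates 2 and 5 below every one, so the mean of 1.73 ± 1.63 CPM (SD, n = 5) describes none of them. The log2 fold change was -1.05 (95% interval -3.28 to 1.18, edgeR adjusted p = 0.517). It was 3.48 when Ag replicates 1, 3 and 4 were left out, a reversal that the choice of libraries fixes, since only the lowest 2 Ag libraries remain.

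Fosb followed a similar order with less separation. It had 1.28, 0.205, 2.16, 0.350 and 0.0296 CPM in Ag and 0.764, 0.361, 0.290, 0.274 and 0.539 CPM in Ag+Costim. Ag replicates 1 and 3 were highest and replicates 2 and 5 lowest, and the log2 fold change of -0.85 had a 95% interval of -2.99 to 1.30. Fosl2, which codes for FRA-2, had 5.26, 1.98, 6.04, 6.15 and 3.82 CPM in Ag and 2.99, 2.92, 2.86, 2.60 and 3.23 CPM in Ag+Costim. It lay above the costimulated range in 4 Ag libraries and below it in replicate 2, with a log2 fold change of -0.67 (SE 0.303), an unadjusted edgeR p of 0.0491 and an adjusted p of 0.268. Without Ag replicates 1, 3 and 4, the 3 highest Ag libraries for Fosl2, it was 0.05, which the choice of libraries fixes in part. Of the 3 genes of the set with an unadjusted p under 0.05, Fosl2 was the one with the lower level in Ag+Costim.

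The Fos promoter is shown for its cyclic AMP response element, through which ATF and CREB proteins are known to act on Fos. It is read at chr12:85473790-85473889 (GRCm38.p6, plus strand) up to the RefSeq start, 5′ to 3′, with the element in capitals.
Fos promoter: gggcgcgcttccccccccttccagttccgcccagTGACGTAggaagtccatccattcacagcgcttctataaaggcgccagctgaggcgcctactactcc
The element lies 66 to 60 bases before the start, and TGACGTA stood in 1.27% of all windows. The AP-1 element TGACTCA stood in 5.2% of windows and the full cyclic AMP response element TGACGTCA in 1.79%, and neither was in the windows of the 10 genes. The core of the interferon-stimulated response element, which is GAAA and GAAA with 2 bases of any kind between them, stood in 3.44% of windows and, of the 10 genes, in that of Fosl2. Fos and Batf lie on chromosome 12 with 209.4 kb between them. Their levels had opposite orders across the Ag libraries but not across the Ag+Costim libraries, and a link to their distance was not tested.

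Atf2 was steady within groups in TMM-scaled CPM. It had 41.4, 43.1, 43.7, 55.2 and 38.6 CPM in Ag and 56.6, 55.8, 51.4, 60.5 and 59.1 CPM in Ag+Costim. Of the costimulated libraries, 4 lay above every Ag library, and Ag replicate 4 stood within the costimulated range. The log2 fold change was 0.35 (SE 0.127, 95% interval 0.07 to 0.63), with an unadjusted edgeR p of 0.0182 and an adjusted p of 0.245. With total counts it was 0.04 and with upper quartile scaling 0.11, so its size rests on the scaling. Total counts also spread Atf2 from 31.9 to 68.8 CPM among the Ag libraries.

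Across the set, 7 of 10 genes had a positive log2 fold change, with a median of 0.18. Of all genes tested 37.7% were positive, with a median of -0.32, and of the 8626 genes with a mean of at least 10 CPM 75.6% were positive, with a median of 0.24. The median over all genes tested was -0.48 with DESeq2-type factors, -0.58 with upper quartile scaling and -0.65 with total counts. With the same scalings the log2 fold change of Irf4 was 0.74, 0.65 and 0.62. Irf4 is among the genes with a mean of at least 10 CPM, whose median was not computed for these scalings. Of the 10 genes, limma with library weights called 7 (higher for Batf, Batf3, Irf4, Jun and Junb, lower for Fos and Fosl2). Its weights were 0.0986 and 0.0656 for Ag replicates 2 and 5 and 2 for Ag replicate 4, so Ag was represented mostly by the libraries with few cell cycle transcripts.

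**Figure D2:**
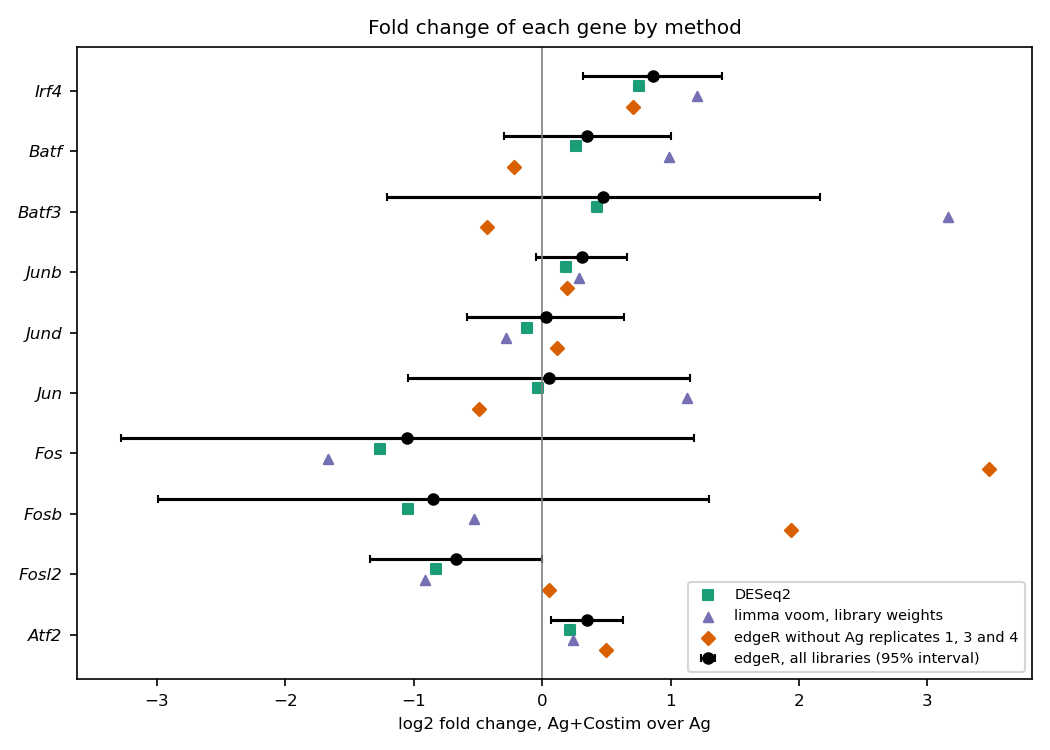
log2 fold change of Ag+Costim over Ag for each of the 10 genes by edgeR with its 95% interval (black), DESeq2 (squares), limma voom with library weights (triangles) and edgeR without Ag replicates 1, 3 and 4 (diamonds). Irf4, Junb and Atf2 lie to the right of 0 by all 4, whereas Fos goes from -1.05 to 3.48 when the 3 Ag libraries are left out.

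Over the 5 Ag libraries, Batf and Batf3 had the order of the cell cycle genes, Fos had the opposite order, and the 7 other genes had other orders. In replicates 2 and 5, where cell cycle genes were high, Batf was high and Fos was at its lowest, and in replicates 1 and 4 the reverse held. In TMM-scaled CPM, Irf4 was below the costimulated libraries in both kinds, but per 100 Junb counts Ag replicate 2 lay within their range. With 5 libraries of a group, and cell cycle level and B cell transcripts varying together among them, no correlation was computed.

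**Figure D3:**
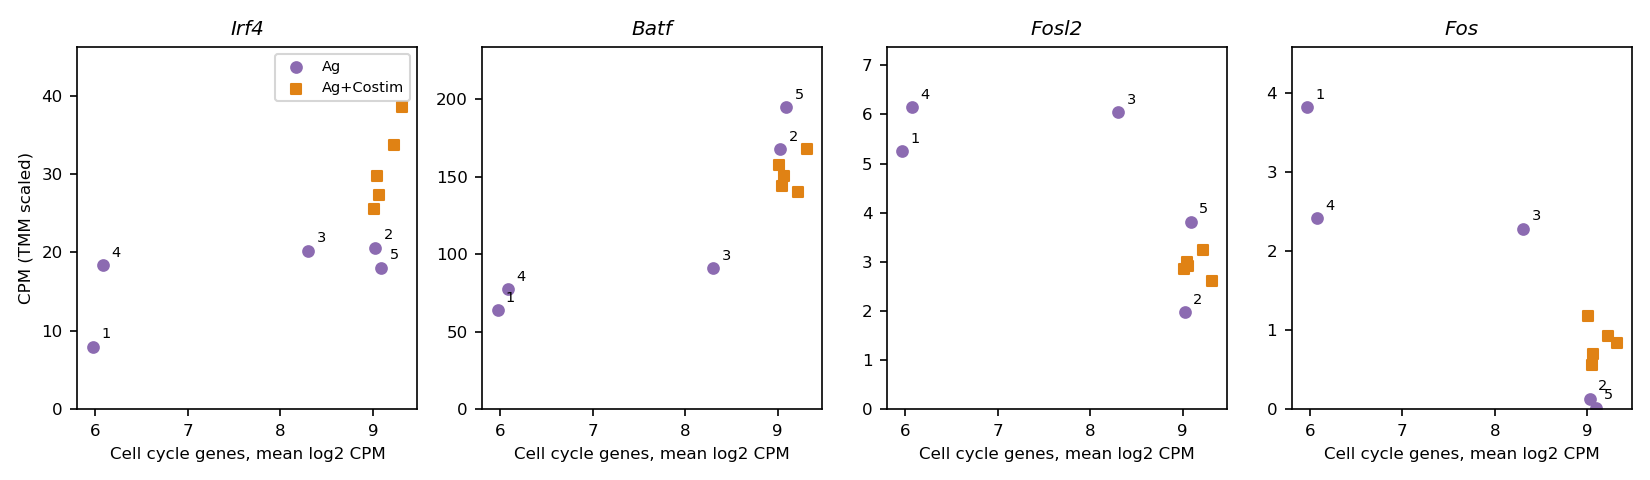
Level of Irf4, Batf, Fosl2 and Fos in TMM-scaled CPM against the mean log2 CPM of 16 cell cycle genes, 1 point per library, with Ag circles numbered by replicate and Ag+Costim squares. At a cell cycle level near 9, Irf4 is 18.04 and 20.6 CPM in Ag replicates 5 and 2 and at least 25.5 CPM in Ag+Costim, while Batf overlaps.

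Per length of transcript, the order of the genes was nearly the same in both groups. The level per length is the sum of counts divided by transcript length, scaled to the same total in each library. In Ag it was 200.5 for Batf, 112 for Junb, 85.4 for Jund, 26.5 for Atf2, 6.29 for Irf4 and 5.72 for Batf3, and in Ag+Costim it was 245, 124, 74.6, 26.7, 10.2 and 8.89 for the same genes. Jun followed with 2.26 and 2.22, and Fos, Fosl2 and Fosb had 1.93, 1.46 and 0.529 in Ag and 0.684, 0.737 and 0.219 in Ag+Costim. In both groups Batf stood above Junb, Jund above Atf2 and Atf2 above Irf4 without overlap of their ranges. Junb and Jund overlapped in both groups, as did Irf4 and Batf3, and Fos and Fosl2. In Ag, Batf3, Jun, Fos and Fosl2 all overlapped their neighbours.

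Of the summed level per length of the 9 zipper genes, the BATF family took 47.8 ± 12.8% (SD, n = 5) in Ag and 52.7 ± 3.43% (SD, n = 5) in Ag+Costim. The JUN family took 45.2 ± 10.7% (SD, n = 5) and 41.3 ± 4.18% (SD, n = 5). Atf2 took 6.07 ± 2.20% (SD, n = 5) and 5.59 ± 0.995% (SD, n = 5), and the FOS family 0.916 ± 0.733% (SD, n = 5) and 0.342 ± 0.0481% (SD, n = 5). Transcripts for FOS proteins were a small part of the zipper pool in every library, at most 1.70%. In Ag replicates 1 and 4 JUN genes outweighed BATF genes (57.9% and 55.9% against 33.5% and 35.2%), and in Ag replicates 2 and 5 BATF genes outweighed JUN genes (59.3% and 60.3% for BATF).

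**Figure D4:**
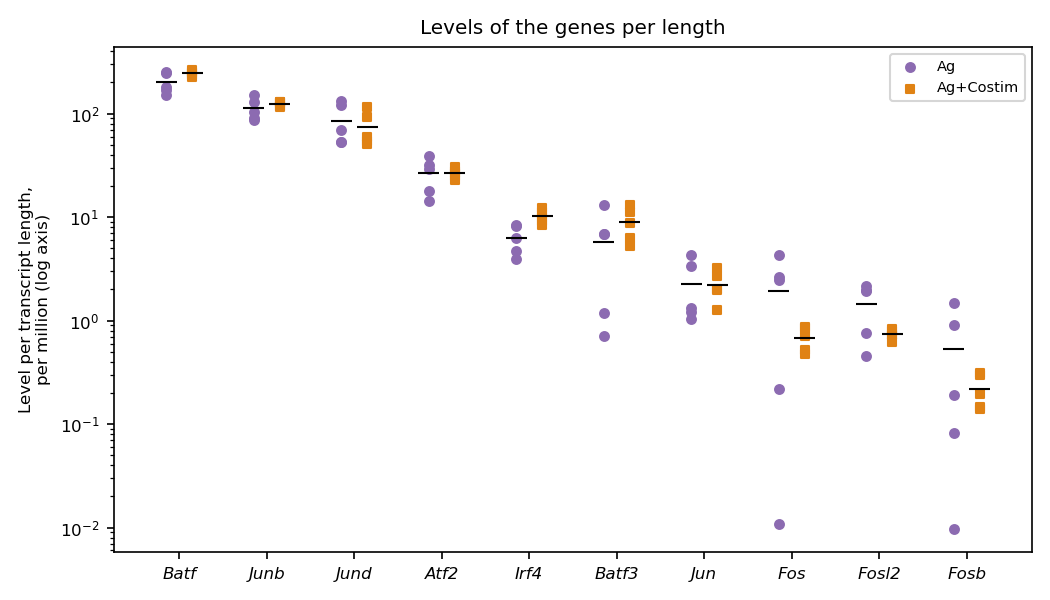
Level per transcript length of each gene, scaled to the same total in each library and drawn on a log axis, with Ag libraries as circles, Ag+Costim libraries as squares and the group means as lines. The means run from 200.5 and 245 for Batf down to 0.529 and 0.219 for Fosb, and the low genes spread widest in Ag.

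Other basic leucine zipper genes and other interferon regulatory factors gave no common direction. Of all genes tested, 18.6% had an unadjusted edgeR p under 0.05. That share stands beside the counts of this list and the next ones. Of 22 other zipper genes 12 were positive, with a median log2 fold change of 0.05, and 6 had an unadjusted p under 0.05 (2 positive, 4 negative). Ddit3, the stress-response factor CHOP, had 9.78 to 21.5 CPM in Ag and 5.89 to 8.52 CPM in Ag+Costim without overlap (-0.99, edgeR adjusted p = 0.154). Every costimulated library lay below every Ag library for 1.13% of all genes. Bach2, which is known to oppose AP-1 at shared elements, had a log2 fold change of -1.27 (edgeR adjusted p = 0.228), with 9.15 to 34.6 CPM in Ag and 4.26 to 11.98 CPM in Ag+Costim. Of 8 other Irf genes 4 were positive (median -0.01) and none had an unadjusted p under 0.05. Irf8, the closest relative of Irf4, had 19.6 to 69.0 CPM in Ag and 62.6 to 80.0 CPM in Ag+Costim (0.67, edgeR adjusted p = 0.282).

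Upstream of AP-1, 14 of 21 MAP kinase cascade genes were positive (median 0.20) and 5 had an unadjusted p under 0.05, all 5 positive. Among genes with a mean of at least 10 CPM, 75.6% were positive. Of the 1989 such genes with an unadjusted edgeR p under 0.05, 1746 were positive. Map2k4, a kinase that activates JNK, had 46.9 to 77.5 CPM in Ag and 78.2 to 95.6 CPM in Ag+Costim (0.47, edgeR adjusted p = 0.245). Of 8 phosphatases of these kinases 4 were positive (median -0.07) and 2 had an unadjusted p under 0.05. Dusp1 had 5.79 to 11.4 CPM in Ag and 10.1 to 14.8 CPM in Ag+Costim (0.56, edgeR adjusted p = 0.251). Of 8 NFAT and NF-kB genes 6 were positive (median 0.15) and 1 had an unadjusted p under 0.05. Nfatc2, a partner of AP-1 on T cell promoters, had 31.0 to 59.6 CPM in Ag and 61.3 to 73.6 CPM in Ag+Costim (0.44, edgeR adjusted p = 0.260).

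Of 19 genes known as targets of BATF and IRF4 in T cells, 13 were positive (median 0.46) and 3 had an unadjusted p under 0.05 (2 positive, 1 negative). Of genes with a mean of at least 10 CPM, 75.6% were positive (median 0.24). Myc, which drives growth and division, had 46.6 to 80.2 CPM in Ag and 96.5 to 109 CPM in Ag+Costim (0.72, edgeR adjusted p = 0.149). Hif1a, a regulator of glycolysis, had 170.5 to 249 CPM in Ag and 251 to 336 CPM in Ag+Costim (0.46, edgeR adjusted p = 0.238). Tbx21, which codes for T-bet, overlapped, with 74.7 to 405 CPM in Ag and 380.5 to 483 CPM in Ag+Costim. Summed over the list, Ag replicates 1 and 4 had 827 and 1169 CPM, Ag replicates 2 and 5 had 2538 and 2709 CPM, and Ag+Costim libraries had 2061 to 2628 CPM.

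Of 15 other immediate early genes, 5 were positive (median -0.34) and 1 had an unadjusted p under 0.05, with a negative value. Egr1 was not that gene, with an unadjusted edgeR p of 0.0509. It had 7.40 to 59.5 CPM in Ag and 9.05 to 16.0 CPM in Ag+Costim (-1.24, edgeR adjusted p = 0.270). Their summed level was 883 and 1021 CPM in Ag replicates 1 and 4, and 484 to 803 CPM in the 8 other libraries. Fos was above the costimulated range in Ag replicates 1 and 4 and also in Ag replicate 3, which had the lowest sum of the 10 libraries, 484 CPM. All 8 heat shock genes were positive (median 0.77, 2 with an unadjusted p under 0.05), and all 16 cell cycle genes were (median 0.90, 1 with an unadjusted p under 0.05). The share of positive genes was 75.6% among those with a mean of at least 10 CPM. Of the cell type markers, counts of positive genes were 3 of 8 for CD8 T cells (median -0.13), 0 of 8 for B cells (-2.61), 2 of 5 for plasma cells (-0.13), 6 of 9 for myeloid cells (0.11), 2 of 8 for dendritic cells (-0.91), 0 of 7 for erythroid cells (-3.83), 0 of 4 for CD4 T cells (-0.96) and 1 of 4 for natural killer cells (-2.75). Eomes and Itgax of these lists are also known from effector CD8+ T cells. No gene of any list passed the adjusted threshold.

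Genes with a pattern close to that of Irf4 or Batf were found by the root mean square difference of log2 CPM over the 10 libraries, each gene centred on its mean. For Irf4 these were Eif4g1, a translation initiation factor (0.212), Ipo9, a nuclear import receptor (0.221), and Rnf219 (0.223), against a median of 0.555 over 8625 genes. Eif4g1 had 101 to 189 CPM in Ag and 271 to 367 CPM in Ag+Costim. For Batf they were Cops6, a subunit of the COP9 signalosome (0.0476), Parl, a mitochondrial protease (0.0603), and the processed pseudogene Gm12715 (0.0658), with a median of 0.422. Cops6 had 91.8 to 278 CPM in Ag and 206 to 245 CPM in Ag+Costim, the same wide and narrow ranges as Batf. For Fos the closest genes, Rab6b, Specc1 and Hs6st1, were less alike (0.751, 0.776 and 0.815, median 2.24 over 13188 genes with a mean of at least 1 CPM). The points share library, depth and cell makeup, so the measure describes these 10 libraries.

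No gene of the set was called for a change in the use of its transcripts, where 29 of 10442 genes (0.278%) were. Jun and Jund have a single annotated transcript and were not tested, and the BH value was 1 for the 8 others. Batf-201 took 97.6 ± 1.72% (SD, n = 5) of Batf counts in Ag and 98.9 ± 0.514% (SD, n = 5) in Ag+Costim, Junb-201 99.9% and 99.98% of Junb counts, and Fosl2-201 90.4% and 93.7% of Fosl2 counts. Fos-201 took 77.2 ± 37.1% (SD, n = 5) and 92.9 ± 8.30% (SD, n = 5) of Fos counts, with 11.9% in Ag replicate 2, where the gene had 42 counts.

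Batf3 counts were spread over a coding form and forms without a coding frame. Batf3-204, a form without an annotated coding frame, took 48.5, 11.96, 16.7, 35.2 and 18.8% of Batf3 counts in Ag replicates 1 to 5. In Ag+Costim it took 9.54, 9.30, 3.01, 1.91 and 2.27%. Every costimulated library lay below every Ag library, which held for 1.46% of the 45572 transcripts tested. The coding form Batf3-201 took 60.2 ± 25.7% (SD, n = 5) in Ag and 88.6 ± 3.24% (SD, n = 5) in Ag+Costim, and the retained intron form Batf3-202 took 11.3% and 3.09%. The groups overlapped for both. The edgeR p of Batf3-204 was 0.120 before adjustment, and the gene had only 134 counts in Ag replicate 1, the library with the largest share.

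Irf4 makes forms that differ by a 3-base choice of acceptor site at the start of an exon. Irf4-201 keeps chr13:30753445-30753447 (GRCm38, plus strand) and Irf4-202 leaves it out, which keeps the reading frame. The junctions are printed 5′ to 3′ from 15 bases before to 12 bases after the choice, with the optional bases in capitals.
Irf4-201 junction: tctctgccagcccagCAGgttcataactac
Irf4-202 junction: tctctgccagcccaggttcataactac
Irf4-201 took 59.1, 73.8, 99.5, 43.4 and 53.7% of Irf4 counts in Ag and 62.6, 39.5, 64.2, 52.7 and 58.7% in Ag+Costim. Its mean was 65.9 ± 21.8% (SD, n = 5) in Ag and 55.5 ± 10.01% (SD, n = 5) in Ag+Costim, with overlap. The deposited inclusion of the 3 bases, 1 value per group, was 0.582 in Ag and 0.563 in Ag+Costim. Both forms were present in every library but Ag replicate 3, where Irf4-202 was listed at 0.

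**Figure D5:**
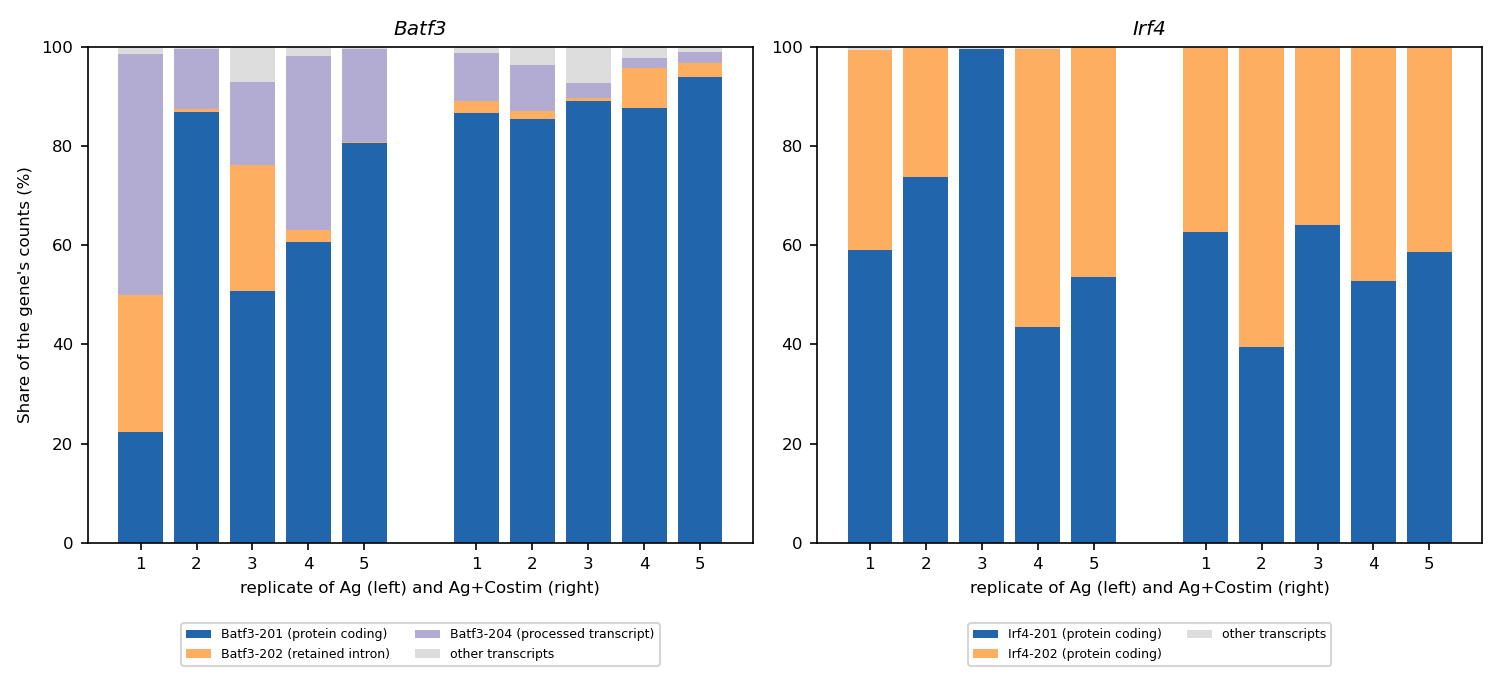
Share of Batf3 and Irf4 counts on each named transcript in percent, 1 bar per library, with Ag replicates on the left and Ag+Costim replicates on the right of each panel. Batf3-204 takes 11.96 to 48.5% in Ag and 1.91 to 9.54% in Ag+Costim, while the Irf4 forms mix in both groups.

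Atf2 spread its counts over many of its 19 transcripts. Atf2-202 took 27.1 ± 17.7% (SD, n = 5) in Ag and 15.1 ± 6.97% (SD, n = 5) in Ag+Costim, Atf2-218, which has no annotated coding frame, 23.0 ± 21.3% (SD, n = 5) and 28.7 ± 14.8% (SD, n = 5), Atf2-206 11.03% and 8.21%, and Atf2-207 8.30% and 12.7%. All 4 overlapped between the groups.

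Fosb can be spliced to a shorter protein. Removal of an intron of 140 bases inside the last part of the coding frame shifts the frame and ends it early, which gives the form known as ΔFosB, whereas Fosb-201 keeps those bases as coding sequence. The intron at chr7:19305007-19305146 (GRCm38, minus strand) is printed 5′ to 3′ with its splice dinucleotides in capitals.
Fosb intron: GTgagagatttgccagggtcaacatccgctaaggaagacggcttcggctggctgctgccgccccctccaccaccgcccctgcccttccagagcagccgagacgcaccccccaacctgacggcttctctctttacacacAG
The deposited retention of this intron was 0.448 in Ag and 0.415 in Ag+Costim. In transcript counts, Fosb-201 took 48.5 ± 35.8% (SD, n = 5) and 64.9 ± 37.3% (SD, n = 5) and the spliced Fosb-206 4.74 ± 6.27% (SD, n = 5) and 10.8 ± 12.9% (SD, n = 5). Fosb-204 is annotated as a retained intron form, but its single exon at chr7:19306416-19310044 does not reach the intron printed above. It took 35.1 ± 18.1% (SD, n = 5) and 18.7 ± 14.2% (SD, n = 5). The gene had as few as 11 counts in a library, and all 3 shares overlapped.

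The deposited table of percent spliced in (PSI, the fraction of transcripts that include a segment) held 49 segments of these genes. There were 23 for Atf2, 12 for Fosb, 8 for Irf4, 2 each for Fos and Fosl2 and 1 each for Batf and Batf3. PSI is given as 1 value per group, so no replicate check was possible. Of the 49, 3 differed by over 0.1 between groups, beside 5.87% of all 138940 segments, and 8 by over 0.05, beside 11.9%. Both neighbouring start segments of Fosb were among the 3. PSI at chr7:19310047-19310051 went from 0.581 in Ag to 0.0992 in Ag+Costim and at chr7:19309601-19310046 from 0.417 to 0.900. These are pieces of the same first exon, 5 and 446 bases long, of a gene at 11 to 579 counts per library. The third was a 3′ end segment of Atf2 at chr2:73818266-73819148, with 0.0531 in Ag and 0.165 in Ag+Costim. Apart from the 3-base segment, the 7 other Irf4 segments, all core exons, had PSI values of 0.974 to 0.997, and the core exon of Batf had 0.9997 and 0.9999.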

How the data were processed

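RNA of sorted OT-I CD8+ T cells was sequenced from 5 Ag and 5 Ag+Costim samples, which the study names biological replicates. Where libraries share a handling step that is not given, p-values measure only the spread between these samples. Libraries were made with SMART-Seq v4 and Nextera XT, which do not mark strand. Per the labels and methods, HISAT2 2.1.0 (mm10), SAMtools 1.9 and StringTie 2.1.0 were used by the authors to align, sort and quantify reads. The deposited tables hold StringTie's estimated counts (expected counts) of genes and transcripts, which stem from coverage and were rounded to whole numbers, so totals are not read numbers. The authors also ran Whippet and deposited PSI as a fraction, 1 value per group. Its columns of differences and probabilities are the authors' own comparison and were not used.

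All 55536 gene and 141862 transcript identifiers matched GENCODE M21 (GRCm38). A further 26248 numbered and 97 other entries without a gene held 0.0458 to 0.308% of counts and were left out. Genes were tested with edgeR 4.0.16 in R 4.3.3 (filterByExpr, TMM factors, quasi-likelihood test, group only, BH over all genes tested, threshold 0.05). DESeq2 1.42.0 and limma 3.58.1 (voom with library weights) were alternatives. Transcript usage was tested with diffSpliceDGE for transcripts with at least 10 counts in at least 5 libraries, asking also for a share difference over 0.1 as a fraction. The steps were run on simulated counts whose libraries differed only by depth, random spread and the changes put in. Ag libraries that differ among themselves were not simulated, so this run cannot show how the tools behave on them. CPM values for display are TMM scaled. Promoter windows are those of RefSeq (GRCm38.p6), and all 10 genes had one.

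The members and lists were chosen with earlier results of these data known. Named genes were the 10 members, up to 3 genes per list with the lowest unadjusted edgeR p and a mean of at least 10 CPM, the 3 genes most alike to Batf, Irf4 and Fos, transcripts with a mean share of at least 10% in a group, and segments whose PSI differed by over 0.1. The PSI values of the Fosb intron, Irf4 and Batf were added after their values were seen, as was the analysis without Ag replicates 1, 3 and 4. Other scalings, no low-count filter, the replicate number as a block and leaving out each library were also tried.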

Additional observations from a re-analysis of the deposited data

Results flagged for a closer look

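Among 54 groups of 5 libraries examined (levels of the 10 genes and shares of their named transcripts), 4 had 1 library whose gap to its nearest neighbour exceeded Dixon's 95% value of 0.71 of the whole range, and chance alone gives about 1 in 20. All 4 were Ag libraries. Irf4 was 7.95 CPM in Ag replicate 1, with 18.04 to 20.6 CPM in the other 4 Ag libraries. Without that library the Irf4 log2 fold change was 0.69. In Ag replicate 2 the share of Fos-201 was 11.9% (82.7 to 100% in the others) and that of Fos-203, a form without an annotated coding frame, was 88.1% (0 to 12.96% in the others), out of 42 counts of Fos. The share of Junb-201 was 99.7% in Ag replicate 3, the shallowest library, with 99.96 to 100% in the others.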

How the results depend on the processing

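The count of genes called at a BH value under 0.05 was 0 with edgeR and also 0 with each other scaling, without the low-count filter, with the replicate block and with each library left out. It was 8046 with DESeq2, 12670 with limma and library weights, and 2752 (1908 higher) with Ag replicates 1, 3 and 4 left out, which keeps 2 Ag libraries that are alike by the choice made. Of the 10 genes, 1 was called with DESeq2 (Irf4), 7 with limma and library weights, and 3 (Atf2, Fos and Irf4) without the 3 Ag libraries. Irf4, Atf2 and Junb kept a positive fold change in 18 of 18 alternatives. The fold change of Irf4 was 0.69 to 0.97 with single libraries left out, with adjusted p-values of 0.00175 to 0.487 over all alternatives. Without Ag replicates 1, 3 and 4 the log2 fold change was 3.48 for Fos, 1.94 for Fosb (adjusted p = 0.185), 0.052 for Fosl2, -0.49 for Jun, -0.22 for Batf and -0.43 for Batf3, each opposite in sign to that with all libraries. For all of these but Jun, the libraries left out were the 3 highest or the 3 lowest of the Ag group, so the choice favours the turn. For Jun the cause was not tested. Jun was -0.034 with DESeq2, -0.042 with DESeq2-type factors in edgeR, -0.13 with total counts, -0.13 with upper quartile scaling and -0.16 to 0.59 with single libraries left out. Jund was -0.12 with DESeq2, -0.28 with limma and library weights, -0.13 with DESeq2-type factors, -0.29 with total counts, -0.23 with upper quartile scaling and -0.17 to 0.13 with single libraries left out. The number of the 10 genes whose groups did not overlap went from 1 to 0 with total counts and with upper quartile scaling, chosen after seeing the data.

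The samples were not treated as pairs by replicate number. The correlation of same-numbered deviations from the group means was 0.26, 0.16, -0.09, -0.28 and 0.14. Differently numbered libraries were not set beside these values, so they cannot show whether same-numbered libraries share a batch. With the replicate block 0 genes were called, and the log2 fold change was 0.085 for Fos, 0.024 for Fosb and -0.018 for Jund. The number of genes with changed transcript usage, 29 with and without the replicate block, was 144 with limma, 19 with a minimum of 50 counts and 6 to 71 with single libraries left out (47, 60 and 71 without Ag replicates 4, 2 and 5, and 6 to 11 without any one of the Ag+Costim libraries). Among segments of the 10 genes, 8 differed by over 0.05 in PSI in place of 3 by over 0.1. The estimated counts limit Fos and Fosb most, at 7 and 11 counts in their lowest library.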
